A study of Mus musculus with 9 samples.

Results

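The epidermal differentiation complex is a cluster of genes on mouse chromosome 3 that encode the proteins of the cornified envelope, the toughened shell that replaces the plasma membrane of dying keratinocytes. Its genes without the S100 family were followed here across 3 compartments of mouse tail epidermis: sebaceous glands (SG), hair follicles (HF) and interfollicular epidermis (IFE). Members were every gene whose symbol begins with Sprr or Lce, together with Flg, Flg2, Lor, Ivl, Rptn, Hrnr, Crct1, Crnn, Tchh, Tchhl1, Lelp1 and Smcp, found through the platform annotation of the array. The rule found 50 genes in a RefSeq table of mouse genes, 3 of them pseudogenes and all on chromosome 3. Of these, 23 had a value among the 14507 genes measured, and the other 27, among them Flg, Flg2, Hrnr, Ivl, Tchh, Crnn, Lelp1 and all 6 Lce3 genes, were not analysed here. The 23 comprised 7 of 13 Sprr2 genes, 4 other Sprr genes (Sprr1a, Sprr1b, Sprr3 and Sprr4), 7 of 14 Lce1 genes, and Lor, Crct1, Rptn, Smcp and Tchhl1.

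All 9 samples came from the tail skin of adult, age-matched wild-type females of C57BL6/CBA background, and no treatment is given. Each sample was a pool of SG, HF or IFE pieces dissected by hand, with 3 biological replicates per compartment and 1 exon array per replicate. The labels do not say whether the replicates of a compartment came from separate animals, so the p-values measure the spread between these pools. No detection calls were used, so how far a gene stood above background is not known.

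In the upper layers of the epidermis, keratinocytes make loricrin and the small proline-rich proteins of the Sprr genes, which transglutaminases cross-link beneath the membrane. Proteins of the Lce (late cornified envelope) genes are added late in the process. Repetin (Rptn) and trichohyalin-like 1 (Tchhl1) belong to the S100-fused proteins, relatives of filaggrin and trichohyalin that combine calcium-binding motifs with long repeats. The hair follicle cornifies along routes of its own, in the hair shaft and the inner root sheath, whereas sebocytes fill with lipid and burst.

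The array name in each sample's description gave another compartment than its title for 9 of 9 arrays, and the groups used here are those of the titles. Marker lists were set beside the titles, as the median deviation of each list from its genes' means over the 9 arrays, on the log2 scale. The median of 13 sebocyte genes was 1.82 to 2.44 on the SG arrays, -0.46 to 0.18 on the HF arrays and -2.04 to -1.92 on the IFE arrays. The median of 14 genes of the hair shaft or inner root sheath was 2.16 to 2.89 on the HF arrays, -1.53 to 0.64 on the SG arrays and -2.02 to -1.76 on the IFE arrays. Within a compartment, arrays correlated at 0.921 to 0.977 over all genes, and between compartments at 0.846 to 0.930.

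Most measured members had their highest signal in IFE. A gene was called when limma's adjusted p was under 0.05 over all genes and the log2 difference was at least 1. In SG, 15 of 23 members were lower than in IFE, where 6.96% of all genes were called lower, and 1 was higher, where 2.54% of all genes were, which makes 16 in either direction against 9.49%. In HF, 15 of 23 were lower than in IFE, against 3.36% of all genes, and 2 were higher, against 2.96% of all genes, which makes 17 in either direction against 6.31%. The median difference over the 23 members was -2.04 for SG minus IFE and -2.16 for HF minus IFE on the log2 scale, beside -0.06 and -0.07 over all genes. The IFE arrays serve in both comparisons. The same 15 genes were lower in SG and in HF: all 7 Lce1 genes, Sprr2b, Sprr2d, Sprr2e, Sprr2h, Sprr2i, Sprr2k, Sprr1b and Lor. Their signal in SG was 2.55- to 12.2-fold lower and in HF 3.15- to 16.7-fold lower. In pooled tissue, fewer cornifying cells and less RNA per cell cannot be told apart.

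**Figure D1:**
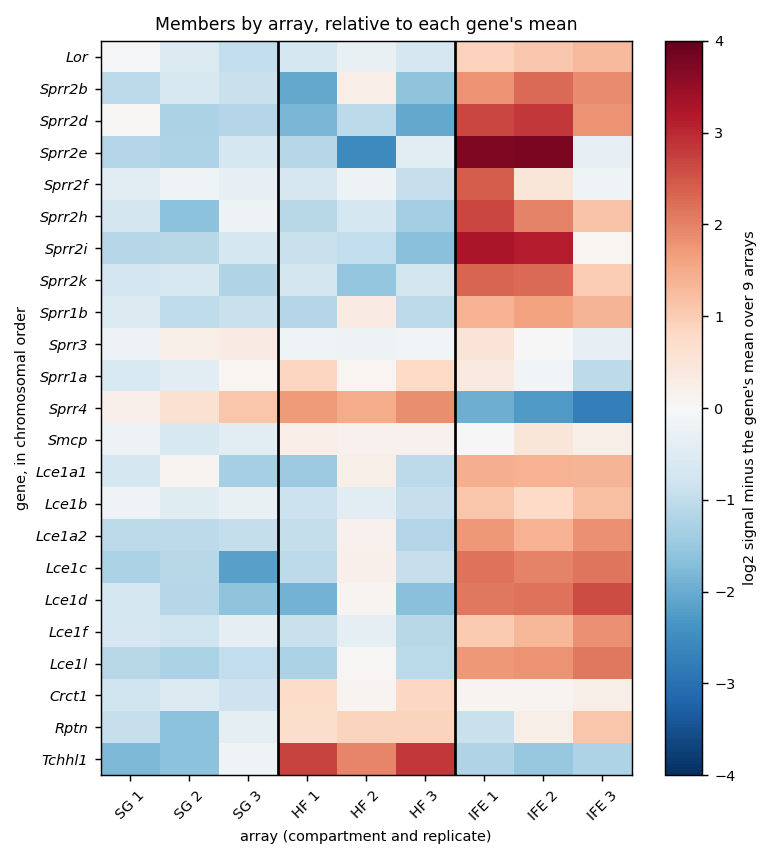
Deviation of each of the 23 members from its own mean over the 9 arrays (log2, colour scale), with members down the page and the arrays of SG, HF and IFE across it. The 7 Lce1 genes, most Sprr2 genes, Sprr1b and Lor are high on the IFE arrays, whereas Sprr4 is low on all 3 of them and Tchhl1 is high only on the HF arrays.

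Between SG and HF few members were called. None was higher in SG, where 1.81% of all genes were called higher, and 4 were lower in SG than in HF, against 3.30% of all genes: Crct1, Rptn, Sprr4 and Tchhl1. In either direction 5.11% of all genes were called. The median difference over the 23 members was 0.01 for SG minus HF, beside -0.02 over all genes. At an unadjusted p under 0.05, 1 member was higher and 7 were lower in SG than in HF. The share of all genes at this looser threshold was not counted, so nothing is read from these counts. For the 15 members that were lower in both SG and HF than in IFE, the SG minus HF differences ran from -0.92 to 0.83 on the log2 scale, and the bounds of their 95% confidence intervals from -1.65 to 2.26. The SG and HF arrays overlapped for 14 of these 15 genes. The exception was Lce1c, at 6.68, 6.83 and 5.78 in SG and 6.88, 8.15 and 7.03 in HF, a difference of -0.92 ± 0.33 that was not called (adjusted p = 0.117).

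Lor encodes loricrin, the glycine-rich protein that makes up much of the cornified envelope. Its log2 signal was 10.11, 9.61 and 9.22 on the SG arrays and 9.50, 9.89 and 9.51 on the HF arrays, against 11.12, 11.26 and 11.48 on the IFE arrays. All SG and HF arrays lay below all IFE arrays. The difference was -1.64 ± 0.23 (SE) for SG (adjusted p = 0.000476) and -1.65 ± 0.23 for HF (adjusted p = 0.000601). SG and HF levels of Lor could not be separated, with a difference of 0.01 and a 95% confidence interval of -0.49 to 0.51.

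The 7 Lce1 genes, which encode cysteine-rich proteins of the late envelope, were each called lower than IFE in SG and in HF, with median differences of -2.67 in SG and -2.31 in HF. The largest SG difference of the family was in Lce1c, at 6.68, 6.83 and 5.78 in SG against 10.11, 9.94 and 10.08 in IFE, which is -3.61 ± 0.33, or 12.2-fold lower (adjusted p = 3.17e-05). Lce1c rests on 1 probe set. In HF, Lce1c at 6.88, 8.15 and 7.03 was also below every IFE array, by -2.69 ± 0.33 (adjusted p = 0.000278). Lce1d was 7.78, 7.33 and 6.85 in SG and 6.58, 8.59 and 6.80 in HF, against 10.59, 10.64 and 11.07 in IFE. Its difference was -3.45 ± 0.43 in SG (adjusted p = 0.000248) and -3.44 ± 0.43 in HF (adjusted p = 0.0003). The SG minus HF interval of Lce1d was -0.95 to 0.94.

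Lce1l and Lce1a2 were likewise lower in SG and in HF than in IFE, with SG and HF arrays that overlapped. Lce1l was 5.98, 5.82 and 6.10 in SG and from 5.84 to 7.14 in HF, against 8.83, 8.90 and 9.21 in IFE. Lce1a2 was 7.47, 7.46 and 7.57 in SG and 7.54, 8.69 and 7.34 in HF, against 10.25, 9.91 and 10.35 in IFE. The call for Lce1l rests on the probe sets used: 2 of its 3 probe sets differed by -3.34 and -3.30 in SG and the third by -0.52, and its brightest probe set alone was called neither in SG (adjusted p = 0.162) nor in HF (-0.93, short of the fold threshold). Lce1a1 and Lce1f were also lower, with differences of -2.04 and -2.03 in SG and -2.16 and -2.18 in HF.

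Lce1b had the smallest difference of the family in both appendages. It was 9.88, 9.56 and 9.74 in SG and 9.17, 9.61 and 9.12 in HF, against 11.14, 10.85 and 11.25 in IFE. The difference was -1.35 ± 0.19 in SG (adjusted p = 0.000524), which became -0.97 and was no longer called after quantile normalization, and -1.78 ± 0.19 in HF (adjusted p = 0.00012).

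On HF replicate 2 the Lce1 genes stood above the other HF arrays. It was the highest HF array for 7 of 7 Lce1 genes and for 12 of the 15 lower members. The median Lce1 deviation was 0.12 on this array, against -1.06 and -1.09 on HF replicates 1 and 3. Other lists moved with it: the sebocyte median was 0.18 there against -0.46 and -0.40, the median of 4 suprabasal keratins -0.04 against -0.39 and -0.43, the median of 8 infundibulum and duct genes 1.11 against 0.64 and 0.71, and the hair list 2.16 against 2.88 and 2.89. Krt2, a keratin of the upper epidermal layers, was 12.08 on HF replicate 2, against 10.86 and 10.94 on the other HF arrays. Krt1 was also highest there, at 12.11 against 11.34 and 11.52. Krt10 (12.90 against 12.98 and 12.72) and Krt77 (8.26 against 8.20 and 8.44) lay between the other HF arrays. Without this array the 7 Lce1 differences between HF and IFE ran from -4.08 to -1.93, with a median of -2.73. Whether other cells had a part in the Lce1 values of HF replicate 2 was not tested.

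**Figure D2:**
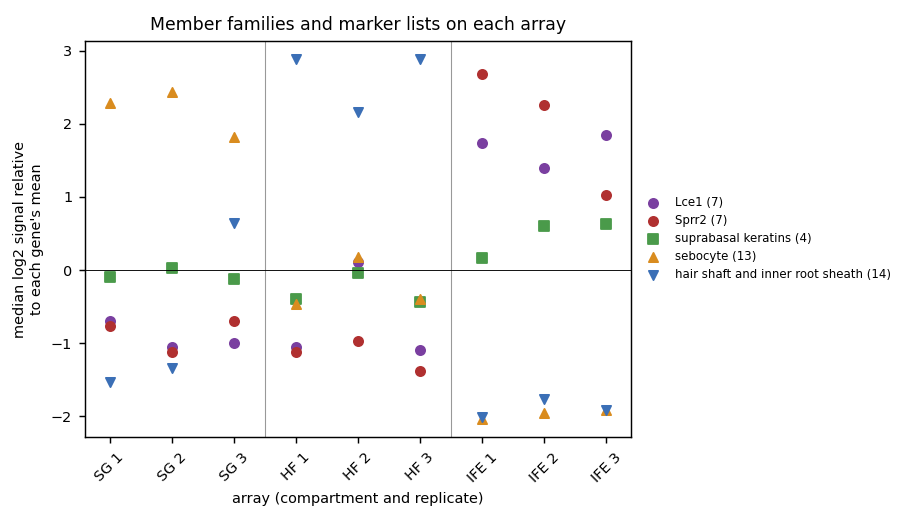
Median deviation (log2) of the Lce1 genes, the Sprr2 genes, the suprabasal keratins, the sebocyte list and the hair list on each of the 9 arrays, ordered SG, HF, IFE and numbered by replicate. Lce1 sits at 0.12 on HF replicate 2, above -1.06 and -1.09 on the other HF arrays, and Sprr2 sits at 1.02 on IFE replicate 3, below 2.68 and 2.26.

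The Sprr2 genes encode small proline-rich proteins that bridge other envelope proteins and are known to be induced in stressed and inflamed epithelia. Of the 7 measured, 6 were lower than IFE in SG and the same 6 in HF, with family medians of -2.84 in SG and -3.11 in HF. Sprr2d was 9.15, 7.83 and 7.95 in SG and 7.29, 8.07 and 7.07 in HF, against 11.79, 11.94 and 10.90 in IFE. Every SG and HF array lay below every IFE array. The HF difference of -4.06 ± 0.38 was the largest fall of any member, 16.7-fold (adjusted p = 5.14e-05), and the SG difference was -3.23 ± 0.38 (adjusted p = 0.000174). Sprr2b was 9.57, 9.97 and 9.73 in SG and 8.56, 10.88 and 9.01 in HF, against 12.40, 12.87 and 12.51 in IFE. It fell by 2.84 ± 0.45 on the log2 scale in SG (adjusted p = 0.001) and by 3.11 ± 0.45 in HF (adjusted p = 0.000792).

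IFE replicate 3 had the lowest IFE signal for 6 of the 7 Sprr2 genes. The median Sprr2 deviation was 1.02 on that array, against 2.68 and 2.26 on IFE replicates 1 and 2. The Lce1 median did not follow, at 1.84 on IFE replicate 3 against 1.74 and 1.40, and the suprabasal keratins stood at 0.62 against 0.17 and 0.60. Sprr2e was 5.73, 5.67 and 6.20 in SG and 5.76, 4.37 and 6.49 in HF, against 10.64, 10.67 and 6.59 in IFE. The IFE replicate 3 value of Sprr2e was thus only 0.10 above the nearest HF array. Its differences were -3.43 ± 0.88 in SG (adjusted p = 0.0164) and -3.76 ± 0.88 in HF (adjusted p = 0.0157).

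The Sprr2e calls rested on single arrays. Leaving out SG replicate 2, IFE replicate 1 or IFE replicate 2 gave an adjusted p of 0.053, 0.0542 or 0.0807 in SG, and leaving out HF replicate 2 or IFE replicate 2 gave 0.0591 or 0.0832 in HF. With array weights, the SG difference was -2.75 (adjusted p = 0.054). Without IFE replicate 3 the differences were -4.79 in SG and -5.12 in HF. Sprr2i had the same shape, at 5.26, 5.27 and 5.68 in SG and 5.48, 5.41 and 4.71 in HF, against 9.66, 9.53 and 6.47 in IFE. Its differences were -3.15 ± 0.64 in SG (adjusted p = 0.00473) and -3.35 ± 0.64 in HF (adjusted p = 0.00515).

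Sprr2h and Sprr2k completed the 6, with differences of -2.79 and -2.74 in SG and -3.00 and -2.87 in HF. Sprr2f did not pass the test. It was 6.64, 6.92 and 6.78 in SG and 6.42, 6.88 and 6.17 in HF, against 9.53, 7.59 and 6.93 in IFE. Its difference was -1.24 ± 0.49 in SG (adjusted p = 0.0936) and -1.53 ± 0.49 in HF (adjusted p = 0.0654), and without IFE replicate 3 it was -1.78 (adjusted p = 0.0219) and -2.07 (adjusted p = 0.0164). The array letter closes the array name, and SG replicate 1, HF replicate 1 and IFE replicate 3 each had a letter of their own. With this letter as a block, those arrays no longer counted toward the differences. Sprr2f was then called in both, at -1.71 and -2.04, a setting that again omits IFE replicate 3 and is not separate support. The Sprr2 genes are close paralogs, and 4 of the 7 measured (Sprr2b, Sprr2d, Sprr2e and Sprr2i) rest on 1 probe set each, so signal shared between copies cannot be separated from a gene's own.

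Since 6 of the 7 Sprr2 genes were called lower in both appendages, the members' promoters were read from RefSeq (GRCm38.p6), which held 21 of the 23 members with 250 bases before and 50 after the start site. The motifs were chosen with the values known. The TATA box TATAAA, on the gene's strand, was present in 7 of 7 Sprr2 promoters and 13 of 21 member promoters (61.9%), compared with 8.32% of all 32851 promoters. An AP-1 site, TGANTCA on either strand, was present in 7 of 7 Sprr2 promoters and 12 of 21 member promoters (57.1%), compared with 7.81% of all. Members lower in SG and HF held the AP-1 site in 8 of 14 promoters and the remaining members in 4 of 7, 57.1% of each. For the TATA box these were 9 of 14 and 4 of 7. The octamer ATGCAAAT, on either strand, was present in the 7 Sprr2 promoters and in no other member, compared with 1.74% of all promoters. A Krueppel-like factor box, CACCC on either strand, was in 9 of 21 (42.9%) compared with 57.5% of all, an Ets site, AGGAAG on either strand, in 9 of 21 compared with 35.4%, and a grainyhead site, AACCGGTT, in 0 of 21 compared with 0.146%. Matches to different motifs overlapped once, an AP-1 site and a CACCC box in Sprr1a. The TATA box began at position -29 from the start site in all 7, the octamer between -112 and -108, and the AP-1 site between -198 and -193, with another at -182 in Sprr2k.

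The 250 bases before the start site are shown for 5 members that differ in pattern and in motifs, with matches to the TATA box, the AP-1 site and the octamer in capitals. Sprr2d (chr3:92338890-92339139, plus strand) and Sprr2e (chr3:92351893-92352142, plus strand) show the shared layout. Lor (chr3:92083143-92083392, minus strand) is a lower member outside both families. Lce1c (chr3:92678997-92679246, plus strand) is an example from the Lce1 genes, whose promoters differ. Sprr4 (chr3:92500494-92500743, minus strand) is the gene with the opposite direction.
Sprr2d: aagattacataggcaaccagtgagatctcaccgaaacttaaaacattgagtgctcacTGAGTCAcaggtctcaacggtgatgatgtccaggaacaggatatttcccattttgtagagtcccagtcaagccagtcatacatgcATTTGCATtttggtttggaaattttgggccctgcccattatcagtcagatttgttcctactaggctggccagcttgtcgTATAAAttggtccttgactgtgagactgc
Sprr2e: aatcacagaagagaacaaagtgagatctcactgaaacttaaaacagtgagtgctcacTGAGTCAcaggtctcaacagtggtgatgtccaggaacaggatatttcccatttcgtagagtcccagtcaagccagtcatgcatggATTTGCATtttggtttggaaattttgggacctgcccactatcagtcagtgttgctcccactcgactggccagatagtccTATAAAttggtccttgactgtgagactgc
Lor: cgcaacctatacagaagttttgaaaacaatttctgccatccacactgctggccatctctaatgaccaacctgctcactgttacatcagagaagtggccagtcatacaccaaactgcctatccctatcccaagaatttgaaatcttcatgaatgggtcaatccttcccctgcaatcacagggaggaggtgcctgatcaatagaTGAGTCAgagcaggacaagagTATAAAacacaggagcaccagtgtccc
Lce1c: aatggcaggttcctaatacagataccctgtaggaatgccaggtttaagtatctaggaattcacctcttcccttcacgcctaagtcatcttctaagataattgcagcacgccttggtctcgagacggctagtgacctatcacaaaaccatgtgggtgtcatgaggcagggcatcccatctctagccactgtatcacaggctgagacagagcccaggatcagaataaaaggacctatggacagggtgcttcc
Sprr4: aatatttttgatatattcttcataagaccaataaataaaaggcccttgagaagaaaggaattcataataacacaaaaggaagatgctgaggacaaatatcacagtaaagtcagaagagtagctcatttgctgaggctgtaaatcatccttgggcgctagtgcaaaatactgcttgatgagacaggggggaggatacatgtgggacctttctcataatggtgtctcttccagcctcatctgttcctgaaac

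Over the 300 bases, Sprr2d and Sprr2e were identical at 89.1% of aligned positions, the closest pair. The 21 Sprr2 pairs ran from 61.9% to 89.1% identity, the 15 Lce1 pairs from 51.8% to 74.6%, and the 162 pairs of different families from 45.8% to 56%. Of the 6 Lce1 promoters with a sequence, 1 held the exact letters TATAAA, 0 the AP-1 site and 0 the octamer. All Lce1 genes were nevertheless lower in SG and HF, as were 6 of the 7 Sprr2 genes. Near variants of the TATA box, such as aataaa in Lce1c, were not counted. The Sprr4 window held none of the 3 motifs, whereas that of Tchhl1, which was higher in HF than in IFE, held an AP-1 site. A match is a description of these letters.

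Sprr1b, another small proline-rich envelope precursor, was lower in both appendages, at 9.68, 9.24 and 9.35 in SG and 9.06, 10.58 and 9.18 in HF, against 11.64, 11.86 and 11.62 in IFE. The differences were -2.28 ± 0.33 in SG (adjusted p = 0.000584) and -2.09 ± 0.33 in HF (adjusted p = 0.00146). Sprr1a, its close relative, was spread across the 3 compartments, at 12.06, 12.23 and 12.75 in SG and 13.55, 12.76 and 13.48 in HF, against 13.08, 12.55 and 11.62 in IFE. Neither Sprr1a difference was called, at -0.07 ± 0.34 for SG (adjusted p = 0.906) and 0.84 ± 0.34 for HF (adjusted p = 0.141). The HF difference of Sprr1a did pass without IFE replicate 1 (1.17, adjusted p = 0.0351) and after quantile normalization (1.07, adjusted p = 0.048), and with array weights (1.22, adjusted p = 0.00651). With array weights, SG minus HF was called as well (-1.05, adjusted p = 0.0402). Sprr3, known best from the lining of the oesophagus and mouth, was 7.40, 7.89 and 7.96 in SG, 7.47, 7.45 and 7.54 in HF, and 8.16, 7.64 and 7.30 in IFE. Its arrays overlapped in every comparison, and the 95% confidence interval of SG minus IFE was -0.45 to 0.55.

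Sprr4 ran against its family. It was 9.30, 9.70 and 10.23 in SG and 10.81, 10.57 and 10.96 in HF, against 7.14, 6.85 and 6.36 in IFE. Every SG and HF array lay at least 2.16 above the highest IFE array. Sprr4 rose by 2.96 ± 0.26 in SG, or 7.79-fold (adjusted p = 2.03e-05), and by 4.00 ± 0.26 in HF, or 16-fold (adjusted p = 5.21e-06). It rests on 1 probe set. Sprr4 was also lower in SG than in HF, by -1.03 ± 0.26, or 2.05-fold (adjusted p = 0.0261). The SG and HF difference was -0.90 after quantile normalization and -0.97 after median centring, below the threshold, and -0.80 with the array letter as a block (adjusted p = 0.18). It also missed the call without SG replicate 1 (adjusted p = 0.0948), SG replicate 2 (0.0829), HF replicate 1 (0.0827) or HF replicate 3 (0.116).

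**Figure D3:**
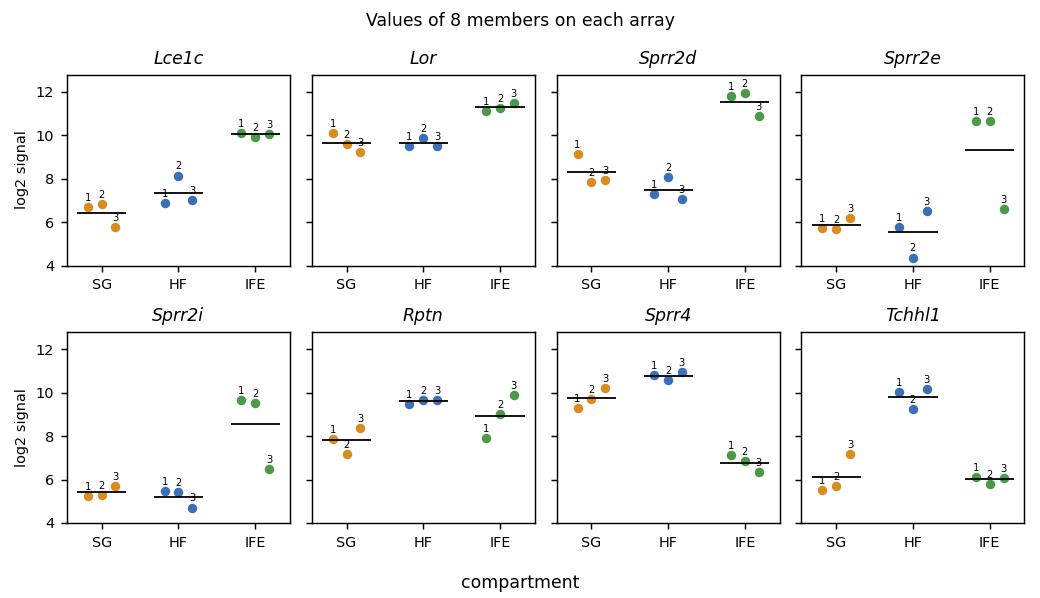
Log2 signal of Lce1c, Lor, Sprr2d, Sprr2e, Sprr2i, Rptn, Sprr4 and Tchhl1 on each array, 1 panel per gene, with SG, HF and IFE from left to right, points numbered by replicate and a line at each mean. IFE is highest in the first 5 panels, with IFE replicate 3 far below the other IFE arrays for Sprr2e and Sprr2i, and IFE is lowest for Sprr4.

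Tchhl1 was high in HF alone. Its log2 signal was 5.54, 5.68 and 7.16 in SG and 10.03, 9.26 and 10.16 in HF, against 6.13, 5.80 and 6.09 in IFE. The lowest HF array was 3.14 above the highest IFE array and 2.10 above the highest SG array. Tchhl1 rose by 3.81 ± 0.38 in HF over IFE, or 14-fold (adjusted p = 6.89e-05), and was 12.9-fold lower in SG than in HF (-3.69 ± 0.38, adjusted p = 0.000288). SG minus IFE was 0.12 ± 0.38 (adjusted p = 0.848). On SG replicate 3 the gene was above the other SG arrays, and so was the hair list, at 0.64 against -1.53 and -1.34. Krt27, a keratin of the inner root sheath, was 11.46 on SG replicate 3, against 7.90 and 8.21 on SG replicates 1 and 2. Without SG replicate 3 the SG minus HF difference of Tchhl1 was -4.21 (adjusted p = 1.89e-06) and SG minus IFE was -0.40 (adjusted p = 0.295). The part of hair follicle RNA in the SG replicate 3 value was not tested.

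The 4 probe sets of Tchhl1 disagreed in size. The first 3 gave HF minus IFE differences of 3.45, 4.93 and 7.00 on the log2 scale. The remaining one, the brightest over the arrays, averaged 8.21 in SG and 8.46 in HF, against 8.23 in IFE, and alone gave a difference of 0.23 that was not called (adjusted p = 0.531). Its SG minus HF difference of -0.25 was not called either. On the probe set with the largest difference, SG replicate 3 read 7.82, against 3.07 and 3.87 on the other SG arrays.

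Rptn encodes repetin, a protein of the granular and cornified layers. It was 7.87, 7.16 and 8.39 in SG and 9.47, 9.68 and 9.68 in HF, against 7.90, 9.01 and 9.90 in IFE. The HF arrays were close together and the IFE arrays spread over 2.00 log2 units, overlapping both others. Rptn was lower in SG than in HF by -1.81 ± 0.42, or 3.50-fold (adjusted p = 0.0188), a call lost when any of SG replicate 1, SG replicate 2, HF replicate 1, HF replicate 2 or HF replicate 3 was left out (adjusted p of 0.05 to 0.085). Its differences from IFE were not called, at -1.13 ± 0.42 in SG (adjusted p = 0.0762) and 0.67 ± 0.42 in HF (adjusted p = 0.342). Without IFE replicate 1, SG minus IFE was -1.65 (adjusted p = 0.00627), and without SG replicate 3 it was -1.43 (adjusted p = 0.0369).

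Crct1, a small cysteine-rich gene beside the Lce genes, was 9.60, 9.84 and 9.56 in SG and 11.13, 10.49 and 11.22 in HF, against 10.51, 10.50 and 10.61 in IFE. Every SG array was below every HF and IFE array. Crct1 was lower in SG than in HF by -1.28 ± 0.20, or 2.43-fold (adjusted p = 0.00245), with all 7 of its probe sets negative, between -1.80 and -0.57. The call ended with the brightest probe set (-0.85, short of the fold threshold) and with the array letter as a block (-1.15, adjusted p = 0.0731). SG minus IFE was -0.87 ± 0.20 (adjusted p = 0.00979), short of the fold threshold, and HF minus IFE was 0.41 ± 0.20 (adjusted p = 0.229). One probe set of Crct1 stood apart, with an HF minus IFE difference of 1.47, whereas the other 6 ranged from -0.47 to 0.31.

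Smcp, which encodes a cysteine-rich protein of sperm mitochondria and lies within the complex, was 6.79, 6.37 and 6.56 in SG and 7.26, 7.17 and 7.17 in HF, against 6.98, 7.49 and 7.25 in IFE. All SG arrays were below all others. The SG minus IFE difference of -0.66 ± 0.18 (adjusted p = 0.0224) was short of the fold threshold, and SG minus HF was -0.62 ± 0.18 (adjusted p = 0.0537). All 5 probe sets were negative for SG minus IFE, from -2.39 to -0.60, and the brightest of them alone gave a called difference of -1.96 (adjusted p = 0.00046). SG minus HF was also called with the brightest probe set (-1.30, adjusted p = 0.0107) and with the mean over probe sets (adjusted p = 0.0082).

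**Figure D4:**
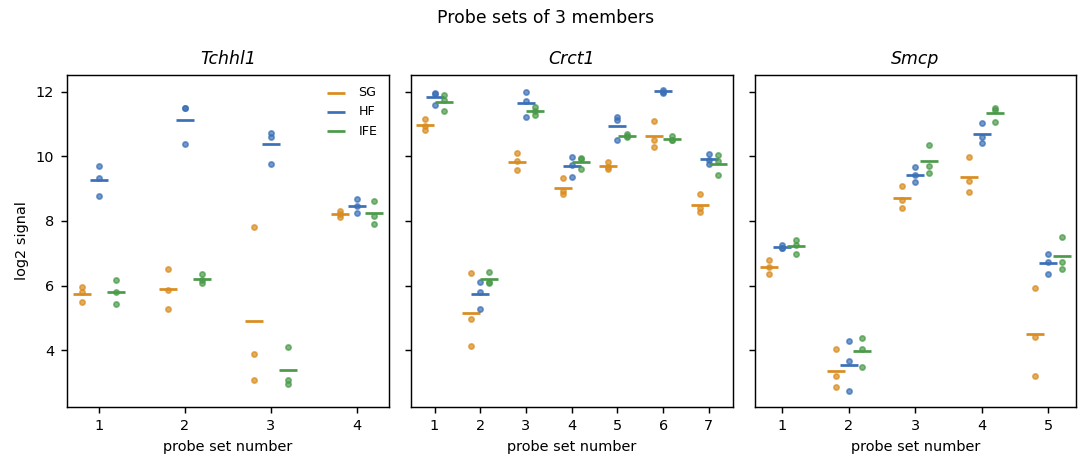
Log2 signal of every probe set of Tchhl1 (4), Crct1 (7) and Smcp (5), with points for the arrays and dashes for the means of SG, HF and IFE. One Tchhl1 probe set is level across compartments, with means of 8.21 in SG, 8.46 in HF and 8.23 in IFE, while the other 3 are high in HF alone.

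Over the 16 members with more than 1 probe set, all probe sets of a gene had one direction in 13 genes for SG minus IFE, in 15 for HF minus IFE and in 9 for SG minus HF. The median spread between a gene's probe sets was 0.81, 0.70 and 0.50 log2 units in these comparisons.

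Along the chromosome, the measured members ran from Lor through the Sprr2 genes, Sprr1b, Sprr3, Sprr1a, Sprr4 and Smcp to the Lce1 genes, and on to Crct1, Rptn and Tchhl1. Sprr3, Sprr1a, Sprr4 and Smcp, none of which was called lower than in IFE, lay together between Sprr1b and the Lce1 genes. Crct1, Rptn and Tchhl1, the 3 other members besides Sprr4 that were lower in SG than in HF, closed the opposite end from Lor. Sprr2f, uncalled, lay within the Sprr2 genes. The order comes from GRCm38.p6, and 27 genes of the rule within it were not analysed here.

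**Figure D5:**
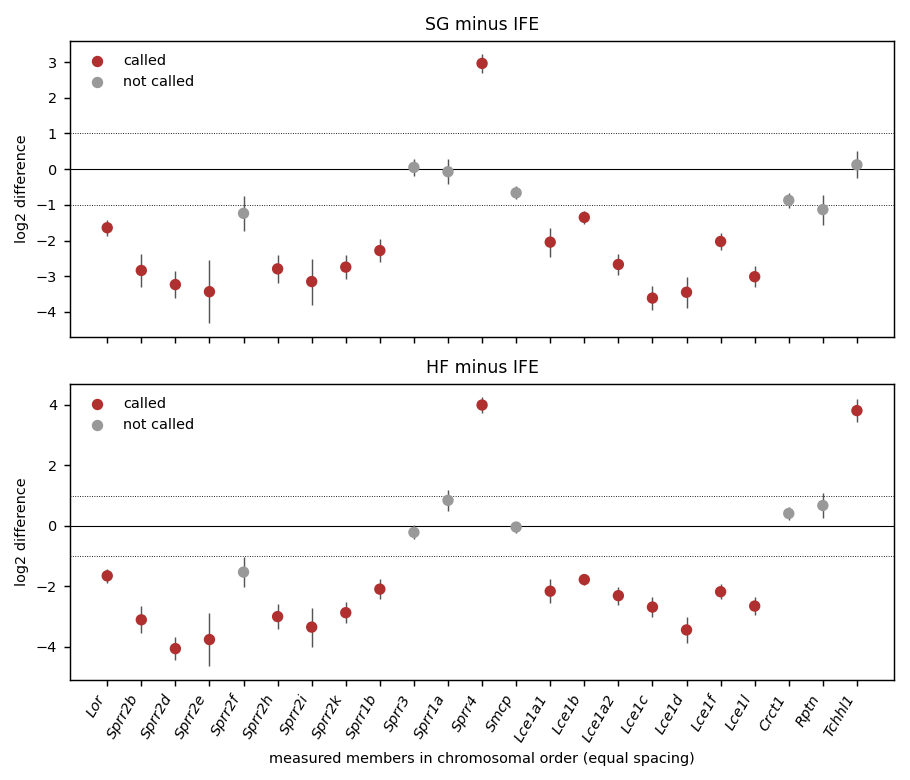
Log2 differences of the 23 members, in chromosomal order from Lor to Tchhl1, for SG minus IFE and HF minus IFE, with bars of the standard error. The Sprr2 and Lce1 genes lie below 0 in both comparisons with IFE, Sprr4 lies between them at 2.96 and 4.00, and Tchhl1 stands at 3.81 for HF minus IFE.

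The array medians over all 23 members sum up the arrays. They were -0.69, -0.81 and -0.70 in SG and -0.89, 0.08 and -0.91 in HF, against 1.46, 1.38 and 1.13 in IFE. All SG arrays were below all IFE arrays for 18 of 23 members, against 21.7% of all genes, and all HF arrays were below all IFE arrays for 16, against 19.3%. Between SG and HF, all SG arrays were below all HF arrays for 7 members, against 17.2% of all genes. IFE was the compartment with the highest mean for 17 members, HF for 5 and SG for 1.

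Genes that surround or serve the complex were counted from lists. Of 4 neighbours outside the rule, 3 were measured, and Pglyrp4, a peptidoglycan recognition protein, was lower in SG and in HF than in IFE, with log2 differences of -1.90 and -1.88 (adjusted p = 0.000214 and 0.000278). Prr9, a proline-rich gene of the complex, followed another pattern, at 7.14, 7.60 and 8.89 in SG and 11.61, 11.08 and 11.84 in HF, against 11.28, 11.11 and 10.85 in IFE. It was lower in SG than in IFE by -3.20 ± 0.37 (adjusted p = 0.000143) and than in HF by -3.63 ± 0.37 (adjusted p = 0.000288).

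Of 13 measured genes that cross-link or process envelope proteins, 6 were lower and 1 higher in SG than in IFE, with a list median of -0.64. The shares of all genes were 6.96% and 2.54%. In HF, 2 of the 13 were lower and 5 higher than in IFE, with a median of 0.06, beside 3.36% and 2.96% of all genes. The transglutaminases Tgm1 and Tgm3 were lower in SG than in IFE, with log2 differences of -2.57 and -1.94 (adjusted p = 0.000293 and 2.46e-05). The protease Asprv1 was lower in SG, at -2.13 (adjusted p = 1.19e-05). Padi3, which deiminates trichohyalin in the follicle and also stands in the hair list, was higher in HF by 3.39 ± 0.37 (adjusted p = 0.000129), and Cst6, a protease inhibitor, was higher in SG by 1.59 and in HF by 1.75. Between SG and HF, 6 of the 13 were lower in SG and 0 higher, beside 3.30% and 1.81% of all genes. Asprv1 (-1.60), Padi3 (-2.44) and Tgm1 (-2.02) were among the 6.

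Of 8 measured envelope partners, mostly junction and plaque proteins, 5 were called lower for SG minus IFE (list median -1.33). For HF minus IFE the list median was -0.64. The 1 partner called lower there was Serpinb2, which is not a junction or plaque protein. The desmocollin Dsc1 was lower in SG than in IFE, with a log2 difference of -2.09 ± 0.18 (adjusted p = 1.98e-05), and periplakin (Ppl) with one of -1.93. Both were also lower in SG than in HF, with differences of -1.26 and -1.30, beside 3.30% of all genes called lower. No other gene of this list passed both thresholds there. The Ppl call ended with the array letter as a block (adjusted p = 0.0526), and the Serpinb2 call in HF ended after quantile normalization (-0.79, adjusted p = 0.138). Among 17 measured regulators of the complex, 8 were lower in SG than in IFE (list median -0.97), beside 6.96% of all genes. In HF, 4 were lower (list median -0.44), beside 3.36% of all genes, and 0 were higher in either. Grhl3, a transcription factor required for the skin barrier, was lower, with differences of -2.45 ± 0.21 in SG (adjusted p = 1.64e-05) and -1.73 in HF (adjusted p = 0.000211). Klf4, another barrier regulator, was lower, at -1.5 in SG (adjusted p = 0.000266) and -1.48 in HF (adjusted p = 0.000367), the HF difference short of the fold threshold with the mean over probe sets (-0.91). Satb1, a chromatin organizer of the complex in the epidermis, was lower, at -2.24 and -2.19, but its brightest probe set gave differences of 0.26 in SG and -0.02 in HF. Ovol1 was the 1 regulator that passed both thresholds for SG minus HF (-1.83 ± 0.27, adjusted p = 0.00155), beside 3.30% of all genes called lower.

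The suprabasal keratins did not move as one group with the envelope genes. Krt2 was lower in SG and HF than in IFE, with log2 differences of -1.49 and -2.45 (adjusted p = 0.00404 and 0.000232). Krt10 was lower in HF, at -1.32 (adjusted p = 0.000584), and its SG difference of -0.97 was short of the threshold. Krt77 was higher, by 2.04 in SG and 1.49 in HF, and Krt1 was called in neither, at -0.30 and -0.20. Between SG and HF, none of the 4 keratins was called. The basal keratinocyte list also stood highest in IFE, with array medians of -0.34 to 0.06 in SG and -0.34 to -0.22 in HF, against 0.24 to 0.71 in IFE, but its genes did not share one direction. Of its 8 genes, 2 were called lower and 1, Krt15, higher in SG than in IFE, and likewise 2 lower and Krt15 higher in HF, beside 6.96% of all genes lower in SG and 3.36% in HF. The part of basal cells in the members' values was not tested.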

How the data were processed

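The authors deposited linear intensities of 154736 probe sets on 9 arrays of RNA amplified from the dissected compartments. Affymetrix Power Tools, the summary method RMA and the build mm9 are named, with no versions, in the submitters' processing notes. The filter on probe sets is not given in the sources used here. Array medians of the deposited intensities ran from 176 to 234.

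Intensities were converted to log2 without a pseudocount and were not normalized again. A gene's value was the median over its probe sets with 1 symbol in the platform annotation; 1060 probe sets had several symbols and 6712 none, and were not used. The 14507 resulting genes had 8 probe sets in the median, whereas members had 2, and 7 members rested on 1. Symbols, gene order and promoters came from RefSeq tables (GRCm38.p6). limma 3.58.1 in R 4.3.3 fitted one mean per compartment over all 9 arrays, followed by eBayes and Benjamini-Hochberg adjustment over all genes, after the code was tested on simulated data. Promoter pairs were aligned with Biopython 1.88.

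Any measured member may be named. Genes of the other lists are given by counts, with up to 4 per comparison chosen by adjusted p. The members and lists were chosen with earlier results of these data known, so no test of a list is given. Alternatives were other normalizations, other ways to join probe sets, blocks, thresholds and leaving out arrays.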

Additional observations from a re-analysis of the deposited data

How the results depend on the processing

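No difference of a member changed direction while called: leaving out 1 array at a time kept 602 of the members' results on their side of the threshold, ended 14 calls and added 5, and the other settings, apart from the changed thresholds, kept 773, ended 12 and added 16. With a log2 threshold of 2, 13 members were lower in SG and 13 in HF than in IFE, beside 133 and 81 genes. With no log2 threshold these were 17 and 15 members, beside 2291 and 1052 of all 14507 genes. Leaving out 1 array gave 14 to 16 members lower in SG than in IFE, beside 800 to 1387 genes. In HF, 14 to 16 members were lower and 2 to 3 higher than in IFE, beside 375 to 734 and 358 to 443 genes. From 2 to 4 members were lower in SG than in HF, beside 350 to 693 genes. There, 2 remained called without SG replicate 1, SG replicate 2, HF replicate 1 or HF replicate 3. Removing dim genes, by their mean over all 9 arrays, left 7254 tested, so a member dim in SG and HF could stay through its IFE signal. Beside 834 genes, 10 members were then lower in SG than in IFE: 9 of the 15, and Rptn (adjusted p = 0.0489). In HF, 9 members were lower and 1 higher than in IFE, beside 369 and 228 genes. Members below the cut were not tested, and no tested member lost a call. The brightest probe set in place of the median gave 1 member higher in HF than in IFE, without Tchhl1, beside 529 genes. Between SG and HF, 2 members were lower with the array letter as a block and 1 at a log2 threshold of 2, beside 273 and 91 genes. With the replicate number as a block, 16 members were lower and 1 higher in SG than in IFE, beside 1018 and 380 genes. In HF, 16 members were lower and 2 higher than in IFE, beside 502 and 442 genes. With this block 4 members were lower in SG than in HF, beside 499 genes. The calls added were Rptn in SG (adjusted p = 0.0339) and Sprr2f in HF (adjusted p = 0.0434). Deviations of arrays with the same number correlated at -0.02 to 0.23 over 9 pairs, and those of arrays with different numbers at -0.16 to 0.11. These values do not settle whether the numbers pair the samples, and the main fit used no pairing. Quantile normalization moved the median SG minus IFE difference of all genes to 0.16, from -0.06, and its calls to 613 higher and 474 lower, beside 368 and 1009; 1 member was then higher and 14 lower. With the brightest probe set, Satb1 (0.26, adjusted p = 0.304), Fosl1 (0.0036, adjusted p = 0.992) and Junb (0.66, adjusted p = 0.0363) turned positive for SG minus IFE and Fosl1 (0.73, adjusted p = 0.0374) for HF minus IFE, against the regulators' other calls; the cause was not tested. Fosl1 and Junb are named here because their direction turned, which was seen in the data. Counts of the lists under other settings were added after seeing the data. Regulators lower in SG than in IFE ranged from 2 to 10 over 23 settings, cross-linking and processing genes from 3 to 7 and envelope partners from 1 to 8. With 3 arrays per compartment and no detection calls, how far dim members stood above background is not known.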
